A study of Homo sapiens with 6 samples.

Results

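MT-CYB, MT-CO1, MT-CO2 and MT-ATP6 are protein-coding genes of the human mitochondrial genome, and their transcripts were followed here in RNA sequencing of MDA-MB-231 cells, an established line of triple-negative breast cancer. They were taken by symbol from the deposited gene table, which gave 4 genes of 13707 complete genes, and all 4 passed the filter on low counts. The choice was made with their difference between the library titles C and K known, so that difference is described below without a test. The titles form 2 sets of 3 libraries each, C1, C2 and C3 beside K1, K2 and K3. The series set cells given 20 µM colistimethate, a prodrug of the polymyxin antibiotic colistin, against control cells, but no label ties C or K to the treated or the control arm. All 6 libraries carry the same cell line label with no other allele or agent, and the labels do not say if the 3 libraries sharing a letter were grown as separate cultures. A p-value therefore measures the spread among the libraries at hand, and that spread may be technical.

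Mitochondria keep a small circular genome that encodes core proteins of respiration and of the enzyme that makes ATP. Both of its strands are transcribed as long precursors, which are cut, mostly at transfer RNAs, into messages and then given poly(A) tails. MT-ATP6 lies between MT-ATP8 and MT-CO3, with no transfer RNA gene next to it. Cytochrome b, from MT-CYB, passes electrons and protons through complex III. Complex IV, cytochrome c oxidase, reduces oxygen in the catalytic subunit from MT-CO1 and receives electrons from cytochrome c at the copper centre of the subunit from MT-CO2. Subunit a of complex V, from MT-ATP6, forms with the c-ring the path by which protons drive ATP synthesis. Each of these complexes also needs many subunits encoded in the nucleus.

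All 4 genes lie on the plus strand of chromosome MT (GRCh38), and each is annotated as a gene with 1 exon. MT-CO1 (ENSG00000198804) spans 5904 to 7445, MT-CO2 (ENSG00000198712) 7586 to 8269, MT-ATP6 (ENSG00000198899) 8527 to 9207 and MT-CYB (ENSG00000198727) 14747 to 15887, with the same bounds in the deposited table and in GENCODE release 29. The first 36 and last 33 bases of the annotated MT-CO1, MT-CO2 and MT-ATP6 transcripts are shown as the ends of the annotated region. The interval used in counting is not given. Capitals mark the first codon and the closing bases.
MT-CO1 start: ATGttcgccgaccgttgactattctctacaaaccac
MT-CO1 end: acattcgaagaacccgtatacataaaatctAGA
MT-CO2 start: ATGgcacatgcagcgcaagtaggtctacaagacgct
MT-CO2 end: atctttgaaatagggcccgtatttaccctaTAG
MT-ATP6 start: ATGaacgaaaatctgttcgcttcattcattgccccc
MT-ATP6 end: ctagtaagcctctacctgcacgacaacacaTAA
MT-CO2 and MT-ATP6 close with TAG and TAA, and MT-CO1 with AGA, where its translation ends in human mitochondria.

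The annotated MT-ATP6 gene begins inside MT-ATP8, another ATP synthase gene that was not analysed here. They share 46 bases, MT:8527-8572, or 6.75% of MT-ATP6, and the start codon of MT-ATP6 is in capitals.
Shared with MT-ATP8: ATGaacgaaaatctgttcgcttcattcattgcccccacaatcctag
Reads from that stretch cannot be told apart between the genes. MT-ATP6 also shares its last base with MT-CO3, which was not analysed here. Copies of mitochondrial sequence in the nuclear genome add a further limit. Of the 75-base windows of MT-CO1, 36.6% occur unchanged in the pseudogene MTCO1P12, 28.0% of those of MT-ATP6 in MTATP6P1 and 10.5% of those of MT-CO2 in MTCO2P12, and the levels of these copies were not analysed here. No window of MT-CYB (0 of 1067) was found in another annotated transcript. The base content was alike, with 44.2% G and C in MT-ATP6 and 46.2% to 46.3% in the other genes.

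Depth over the listed genes was 32637531 to 33339068 estimated reads in C and 31438065 to 35946691 in K. The markers AXL, CAV1, CD44, MSN and ZEB1 of the line were all present, MSN the highest at 1078 ± 26.0 TPM in C and 955 ± 34.1 TPM in K (SD, n = 3 each). The 5 summed to 2298 to 2429 TPM in C and 2051 to 2192 TPM in K. AXL rose (fold change of 0.21 as log2, SE 0.036, adjusted p = 0.0318 in edgeR's quasi-likelihood test) and CAV1 fell (log2 change -0.37, SE 0.043, adjusted p = 0.0118) in C relative to K. Luminal epithelial markers summed to 209 to 232 TPM in C and 221 to 245 TPM in K, nearly all of it KRT8 (205 ± 13.9 TPM in C and 214 ± 13.7 TPM in K), and the defining marker CDH1 was listed at 0 in every library. Of 6 luminal markers tested, 3 fell, where 3.41% of all genes tested were called lower in C and 5.61% in either direction, namely GATA3 (-0.47, adjusted p = 0.0493), ELF3 (-1.61, adjusted p = 0.0175) and SPDEF (-1.39, adjusted p = 0.0192), each below 5 TPM in C. FOXA1, of the same list, was higher in every C library, at 2.27 ± 0.309 TPM in C and 1.76 ± 0.0893 TPM in K, and did not pass (log2 change 0.29, SE 0.122, adjusted p = 0.193). The calls of AXL, CAV1, GATA3, ELF3 and SPDEF were all lost without K1 or without K3 (adjusted p 0.0517 to 0.147) and with the replicate number as a block (adjusted p 0.0732 to 0.148). Leaving out C1 also ended the calls of AXL, CAV1, GATA3 and ELF3 (adjusted p 0.0607 to 0.138), C2 those of AXL, GATA3 and SPDEF (0.0692 to 0.115), and C3 those of AXL, GATA3, ELF3 and SPDEF (0.0578 to 0.118). GATA3 was further lost without K2 (adjusted p = 0.0520), with DESeq2 size factors (0.0504), with no filter (0.0548) and with limma (0.0530). The part of these markers in the values of the mitochondrial transcripts was not tested. Blood cell markers summed to 654 to 681 TPM in C and 665 to 700 TPM in K, nearly all of it SRGN (413 ± 12.0 TPM in C and 423 ± 1.31 TPM in K) and CD68 (257 ± 1.89 TPM in C and 261 ± 19.1 TPM in K), with CD3E and HBB listed at 0. Fibroblast markers reached at most 3.24 TPM in C and 3.03 TPM in K, the highest being COL1A1 (2.47 ± 0.622 TPM in C and 2.41 ± 0.382 TPM in K).

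All 4 transcripts were less abundant in every C library than in every K library, a pattern that 17.7% of the 9057 genes tested showed in CPM (counts scaled to the library total). They were among the most abundant of the listed messages. By mean TPM, a unit scaled to transcript length and library total, MT-CO2 stood at rank 1 and MT-CO1 at rank 2. MT-CYB stood at rank 12 and MT-ATP6 at rank 33 of 13707 listed genes. Those genes held 67.1% to 67.9% of the full TPM total, so messages outside the list are not ranked. Their summed share of listed reads was 1.86 ± 0.0433% in C and 3.16 ± 0.247% in K (SD, n = 3 each). In RNA from whole cultures, fewer cells with a high level and less RNA per cell cannot be told apart.

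Cytochrome b of complex III was measured by MT-CYB at 3089, 3107 and 2829 TPM in C1, C2 and C3, and at 5448, 4724 and 5176 TPM in K1, K2 and K3. The highest C library lay 1617 TPM under the lowest K library. The C mean was 58.8% of the K mean, and the log2 fold change of counts in edgeR was -0.78. On the log2 TPM scale the difference of means, C minus K, was -0.76 (SE 0.074, n = 3 each).

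In complex IV, the catalytic subunit gene MT-CO1 had 8208, 8141 and 7852 TPM in C1, C2 and C3, and 15054, 12789 and 13822 TPM in K1, K2 and K3. Its C mean was 58.1% of the K mean, with no overlap of the letters. The log2 fold change of MT-CO1 was -0.80 on counts and -0.78 on log2 TPM (SE 0.071). The copper-centre subunit gene MT-CO2 had 11919, 12255 and 11904 TPM in C1, C2 and C3, and 21299, 17902 and 19581 TPM in K1, K2 and K3. The C libraries of MT-CO2 were close together, with a coefficient of variation of 1.65% in C and 8.67% in K. It was also smaller in C for MT-CO1 (2.35% and 8.17%) and MT-CYB (5.18% and 7.14%), but not for MT-ATP6 (3.67% and 3.07%). Among complex I transcripts it was smaller in C for all but MT-ND6 (5.37% in C and 4.53% in K). For MT-CO2 the log2 fold change was -0.72 on counts and -0.70 on log2 TPM (SE 0.074).

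For complex V, MT-ATP6 had 1726, 1851 and 1826 TPM in C1, C2 and C3, and 2946, 2776 and 2823 TPM in K1, K2 and K3. The letters again did not overlap, and the C mean was 63.2% of the K mean. The log2 fold change of MT-ATP6 was -0.68 on counts and -0.66 on log2 TPM (SE 0.040), the smallest size among the 4. Behind these values stood 28568, 30903 and 29705 estimated reads in C1, C2 and C3, and 46887, 50683 and 44810 in K1, K2 and K3, with K2 the highest K library in reads and the lowest in TPM.

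**Figure D1:**
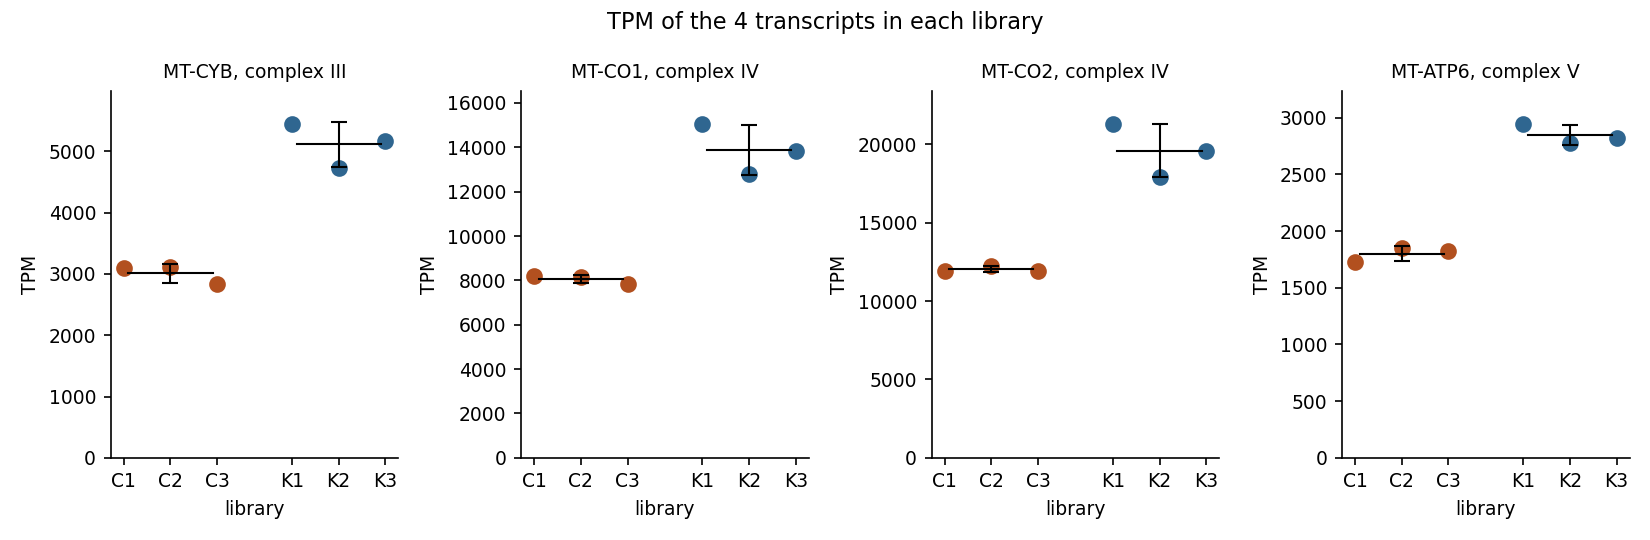
TPM (y axis, from 0) of MT-CYB, MT-CO1, MT-CO2 and MT-ATP6 in each library (x axis), C in brown and K in blue, with the mean and SD of 3 libraries in black. Every C point lies below every K point, and K2 is the lowest K library in each panel.

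The median log2 fold change of the 4 was -0.75, beside 0.00 over all 9057 genes tested. Of those genes, 2.71% had a log2 fold change at or below that of MT-ATP6, and 3.41% were called lower in C by edgeR at an adjusted p under 0.05. As the members were chosen with this difference known, nothing is read from these shares or from the 17.7% above. The mitochondrially encoded complex I subunits, measured in the same libraries and contrast, had log2 fold changes from -0.85 (MT-ND6, SE 0.055, adjusted p = 0.00171) to -0.34 (MT-ND3, SE 0.064, adjusted p = 0.0389). In edgeR 7 of 7 passed the threshold, all lower in C. These transcripts come from the same genome as the members and are not independent of them. The gene lists were also chosen with earlier results known, so nothing is read from this count. MT-ND6 is encoded on the opposite strand from the 4 members and had 622 ± 33.4 TPM in C and 1105 ± 50.1 TPM in K. MT-ND4L, which overlaps MT-ND4, had the highest TPM among complex I subunits, at 5369 ± 129 TPM in C and 9148 ± 928 TPM in K.

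**Figure D2:**
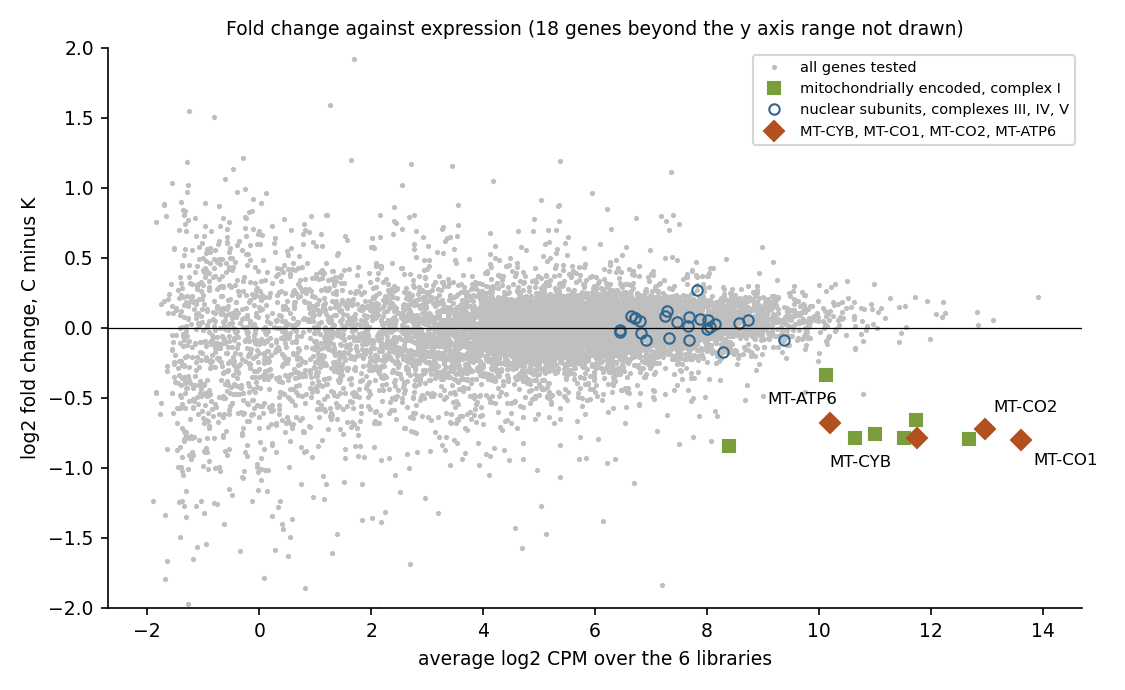
Log2 fold change, C minus K (y axis), against average log2 CPM over the 6 libraries (x axis, log scale) for genes tested in edgeR, in grey; the 18 genes beyond a log2 fold change of 2 in either direction are not drawn. The 4 transcripts (diamonds) lie between -0.80 and -0.68, near the complex I transcripts of the same genome (squares), while nuclear subunits of complexes III, IV and V (open circles) lie between -0.17 and 0.27.

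The order of the K libraries was shared by the 4 transcripts. K1 was the highest K library and K2 the lowest for each of the 4 in TPM, with K2 also the deepest library. This order was not particular to them, as MT-ND1, MT-ND2, MT-ND3, MT-ND4, MT-ND4L and MT-ND5 of complex I had it too. MT-ND6, on the opposite strand, ran the other way, at 1055, 1155 and 1106 TPM in K1, K2 and K3. On the log2 CPM scale, K1 stood above the K mean by 0.10 for MT-CYB, 0.12 for MT-CO1, 0.13 for MT-CO2 and 0.05 for MT-ATP6, and the deviations of K2 were -0.10, -0.11, -0.12 and -0.03 in the same order. Within C the order of libraries in TPM differed between genes. C3 was the lowest C library for MT-CYB, MT-CO1 and MT-CO2, and C1 the lowest for MT-ATP6. The largest deviation in log2 CPM within C was that of MT-CYB in C3, at -0.08.

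The order of the levels was the same in each of the 6 libraries: MT-CO2, then MT-CO1, MT-CYB and MT-ATP6. Differences of log2 TPM between neighbours were taken within a library and are given as a description. MT-CO2 exceeded MT-CO1 by 0.54 ± 0.049 (SD), or 1.45-fold, and MT-CO1 exceeded MT-CYB by 1.43 ± 0.033, or 2.70-fold. MT-CYB exceeded MT-ATP6 by 0.79 ± 0.096, or 1.73-fold. Each difference was positive in 6 of 6 libraries and larger than its SD over them. An exact two-sided sign-flip permutation test gave each pair p = 0.0313, which any order shared by 6 libraries gives, and as the pairs were formed from the same values nothing is read from it.

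Ratios of TPM within a library overlapped between C and K for 5 of the 6 pairs of transcripts, the exception being MT-CO1 to MT-CO2. MT-CO1 stood at 68.9%, 66.4% and 66.0% of MT-CO2 in TPM in C1, C2 and C3, and at 70.7%, 71.4% and 70.6% in K1, K2 and K3. These values did not overlap and differed by -3.82 percentage points in the means. No share over pairs of other genes was taken, so nothing is read from the lack of overlap. The windows shared with nuclear copies, given above, differ between MT-CO1 and MT-CO2, and their part in this ratio was not tested. MT-CYB was at 37.3 ± 1.11% of MT-CO1 in C and 36.9 ± 0.634% in K, and MT-ATP6 at 14.98 ± 0.443% of MT-CO2 in C and 14.6 ± 0.852% in K. The letters overlapped in both. Together the 4 transcripts made up 57.6% to 58.2% of the reads of the 11 listed mitochondrial genes in C and 58.4% to 58.7% in K. These ranges did not overlap, and nothing is read from that either.

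**Figure D3:**
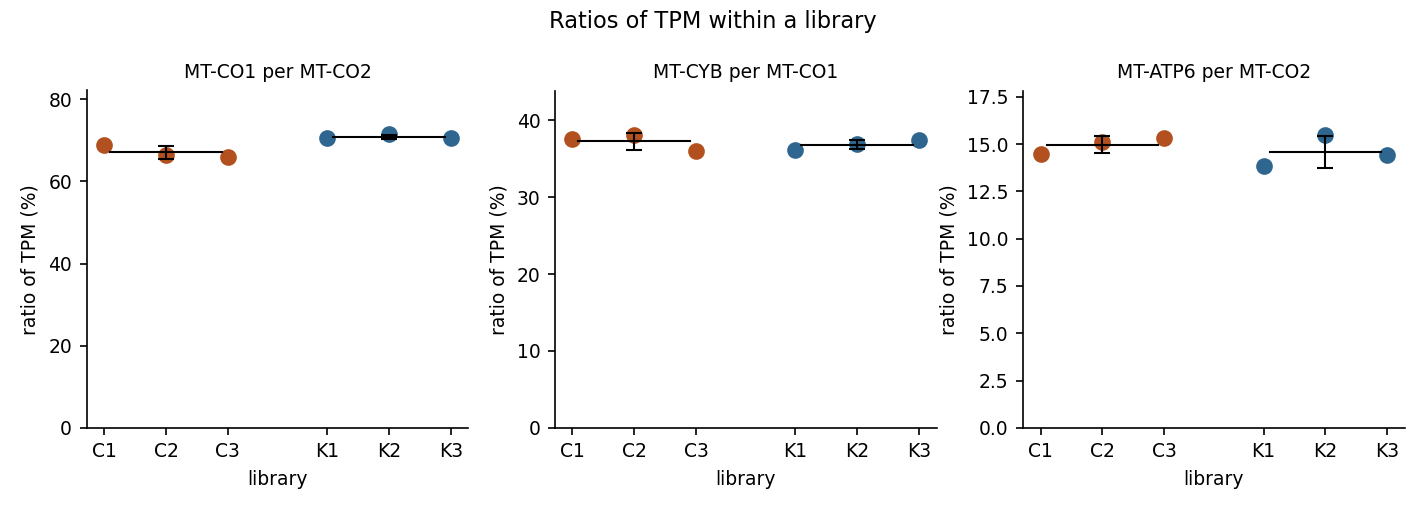
Ratio of TPM within each library, in percent (y axis, from 0), for 3 pairs of transcripts, C in brown and K in blue, with the mean and SD of 3 libraries in black. MT-CO1 per MT-CO2 is 66.0% to 68.9% in C and 70.6% to 71.4% in K, and the letters overlap for the other pairs.

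The nuclear partners in the same complexes were tested from a list of 43 genes, of which 25 were tested. None passed in edgeR (0 of 25, against 5.61% of all genes tested), with 2 at an unadjusted p under 0.05, as had 2444 of all 9057 genes. DESeq2 called 1, UQCRB, and limma on log2(TPM + 1) called 0. Their median log2 fold change was 0.03, beside 0.00 over all genes, and they ranged from -0.17 to 0.27. The most abundant complex III subunit was UQCRH, the hinge protein, at 596 ± 21.4 TPM in C and 567 ± 33.6 TPM in K (fold change of 0.05 as log2, SE 0.052, adjusted p = 0.545). UQCRB, named for its call in DESeq2, differed by -0.17 (log2, counts) with an SE of 0.043 and an adjusted p of 0.0696 in edgeR, while its TPM was 172 ± 11.5 in C and 171 ± 11.6 in K. Among complex IV subunits, COX8A stood at 1167 ± 16.3 TPM in C and 1108 ± 26.4 TPM in K (fold change of 0.06 as log2, SE 0.033, adjusted p = 0.324). In complex V, ATP5C1, which encodes the gamma subunit of the rotor, had 783 ± 15.9 TPM in C and 826 ± 19.6 TPM in K (fold change of -0.09 as log2, SE 0.030, adjusted p = 0.125).

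Set against the median nuclear subunit of its own complex, each mitochondrial transcript was many times more abundant in TPM. MT-CYB was 17.2, 15.9 and 15.5 times the median of 8 complex III subunits in C1, C2 and C3, and 29.7, 24.2 and 27.7 times in K1, K2 and K3. MT-CO1 was 23.4 ± 2.59 times the median of 6 complex IV subunits in C and 44.2 ± 9.63 times in K, and MT-CO2 was 34.9 ± 3.11 times that median in C and 62.3 ± 13.9 times in K. MT-ATP6 was 9.74 ± 0.610 times the median of 11 complex V subunits in C and 16.1 ± 1.42 times in K. In none of the 4 did the letters overlap. The members were chosen with their difference between C and K known, so nothing is read from this. The nuclear medians themselves overlapped, with 180 to 195 TPM in C and 183 to 195 TPM in K for complex III, 315 to 377 TPM in C and 278 to 367 TPM in K for complex IV, and 177 to 193 TPM in C and 168 to 189 TPM in K for complex V.

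Genes that assemble these complexes also gave no call in edgeR, 0 of 27 tested against 5.61% of all genes, with 4 at an unadjusted p under 0.05, beside 2444 of all 9057 genes. Their median log2 fold change was 0.07. DESeq2 called 1, TACO1, and limma on log2(TPM + 1) called 2, COA3 and UQCC3, each higher in C. TACO1, an activator of MT-CO1 translation, differed by 0.20 (log2) in edgeR with an SE of 0.047 and an adjusted p of 0.0593. The most abundant members were UQCC3, a complex III assembly factor, at 68.6 ± 4.09 TPM in C and 56.2 ± 0.548 TPM in K (log2 change 0.21, SE 0.071, adjusted p = 0.132), COA4 of complex IV assembly at 219 ± 2.22 TPM in C and 201 ± 4.50 TPM in K (log2 change 0.09, SE 0.031, adjusted p = 0.125), and TMEM242 of ATP synthase assembly at 7.07 ± 0.502 TPM in C and 6.93 ± 0.207 TPM in K (log2 change 0.10, SE 0.068, adjusted p = 0.380).

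Genes that maintain mitochondrial DNA or transcribe, process and translate mitochondrial RNA held 2 calls among 33 tested, both higher in C. The share was 6.06%. Of all genes tested, 5.61% were called in either direction and 2.2% higher in C. POLG, the mitochondrial DNA polymerase, had 52.4 ± 3.63 TPM in C and 45.1 ± 4.20 TPM in K (fold change of 0.27 as log2, SE 0.041, adjusted p = 0.0251 in edgeR's quasi-likelihood test). It shares 7.66% of its exonic bases with FANCI on the other strand, where reads are uncertain because the use of strand in counting is not stated. TUFM, the mitochondrial elongation factor Tu, had 594 ± 7.47 TPM in C and 524 ± 11.1 TPM in K (log2 change 0.16, SE 0.030, adjusted p = 0.0391). Leaving out C1, C2, C3, K1 or K3 ended both calls, with adjusted p between 0.0612 and 0.128, and both held without K2. With the replicate number as a block in edgeR both were lost (adjusted p = 0.142 for POLG and 0.157 for TUFM). Limma on log2(TPM + 1) did not call POLG (adjusted p = 0.1845), whose TPM overlapped between the letters, with 48.5 in C2 and 49.4 in K2. POLRMT, the mitochondrial RNA polymerase, was at 82.8 ± 2.78 TPM in C and 72.7 ± 4.16 TPM in K (log2 change 0.17, SE 0.053, adjusted p = 0.117). HSD17B10, a subunit of the enzyme that cuts the 5′ ends of mitochondrial transfer RNAs, was at 384 ± 3.37 TPM in C and 353 ± 20.7 TPM in K (log2 change 0.11, SE 0.048, adjusted p = 0.222).

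Of further genes picked by role after their values were seen, TFAM, which packages mitochondrial DNA and starts transcription, differed by -0.09 (log2) between C and K, with an SE of 0.039 and an adjusted p of 0.196 in edgeR. LRPPRC and SLIRP, a pair of proteins that stabilise mitochondrial messages, differed by -0.05 (log2), with an SE of 0.028 and an adjusted p of 0.323, for LRPPRC and by 0.00, with an SE of 0.056 and an adjusted p of 0.969, for SLIRP.

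**Figure D4:**
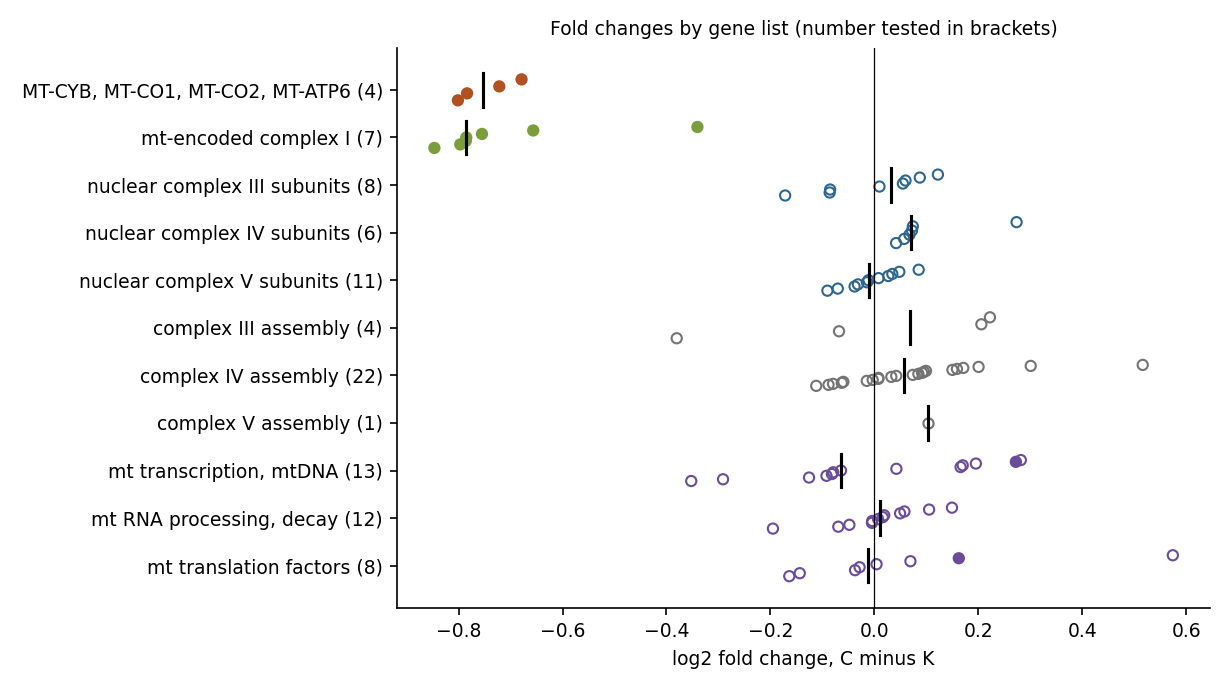
Log2 fold change, C minus K (x axis), of each tested gene by list (rows), with the list median as a black bar; filled circles passed an adjusted p of 0.05 in edgeR, and the 4 members in the top row are drawn filled with no test. The members lie between -0.80 and -0.68, and the nuclear subunits between -0.17 and 0.27, with POLG and TUFM the filled points among all nuclear lists.

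Nuclear genes whose profile over the 6 libraries was most like that of the 4 transcripts were sought in the 4518 nuclear genes whose average expression reached the median, by Pearson correlation of log2 CPM with the mean of the 4. The 5 most alike were IL1B, an inflammatory cytokine, with a correlation of 0.997, CSF1, a macrophage growth factor, with 0.995, HACD1, an enzyme of fatty acid elongation, with 0.995, SRSF11, a splicing factor, with 0.994, and NUFIP2, an RNA-binding protein, with 0.993. All points share the split into C and K and the same library totals, so these values are a description over 6 libraries. As the genes were picked by this correlation, a like order of the K libraries is favoured by the choice. Nothing is read from that order. IL1B had 306, 316 and 297 TPM in C1, C2 and C3, and 410, 387 and 406 TPM in K1, K2 and K3. Its K1 was the highest and its K2 the lowest of the K libraries, as for the 4 members. CSF1 had 36.9, 36.6 and 36.2 TPM in C1, C2 and C3, and 66.1, 56.5 and 62.7 TPM in K1, K2 and K3, the same order within K. The log2 fold changes were -0.41 for IL1B, -0.73 for CSF1, -0.29 for HACD1, -0.20 for SRSF11 and -0.16 for NUFIP2. Among the complex I transcripts of the mitochondrial genome the correlations ran from 0.957 for MT-ND3 to 0.998 for MT-ND4.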

How the data were processed

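Libraries were made from Trizol RNA with a YEASEN mRNA kit, per the labels' protocols. Tools named are StringTie 1.3.3b, HISAT2 2.1.0, Trimmomatic and FastQC 0.11.2, with the build GRCh38 (hg38), per the submitters' processing notes. No source used here gives the counting tool, the annotation or the use of strand. The authors deposited an estimated count, a TPM and an FPKM per gene and library. For the 11 mitochondrial genes the deposited counts equalled FPKM times gene span times 1 constant per library to within 0.0067%. Span here is the end position minus the start position, which is shorter than the gene length. Counts and FPKM thus carry the same coverage, and no counting interval is given. The table held 13707 complete genes and 1 incomplete row, and TPM of the listed genes summed to 67.1% to 67.9% of the full total.

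The test on counts was that of edgeR 4.0.16 under R 4.3.3 (filterByExpr with a minimum count of 10 and total of 15, TMM, quasi-likelihood test, C against K over 6 libraries, Benjamini-Hochberg adjustment over 9057 genes, threshold 0.05). SE is the fold change divided by the square root of F. The steps were tested on simulated counts. Alternatives were DESeq2 1.42.0, limma 3.58.1 on log2(TPM + 1) for genes with a mean TPM of at least 1, other scalings and filters, a replicate block and leaving out libraries. Of the duplicated symbol SCO2, the ID with more counts was used. Shared windows, gene bounds and sequences came from GENCODE release 29.

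The members and gene lists were chosen with earlier results of these data known. Genes named were the members, other mitochondrially encoded genes, up to 3 called genes and the most abundant gene of each list, and the 5 most alike nuclear genes; others are said to be named outside this rule. Transcripts retained in the nucleus, listed as signs of RNA quality, were not analysed here. Sequence of MT-CYB and 1 blood cell marker are not reported here.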

Additional observations from a re-analysis of the deposited data

How the results depend on the processing

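The log2 fold changes of the 4 mitochondrial transcripts moved by less than the spread between libraries under every alternative run, which covered 10 that kept all libraries and the 6 that left out a library. With a library left out they ran from -0.83 to -0.73 for MT-CYB, -0.85 to -0.74 for MT-CO1, -0.78 to -0.66 for MT-CO2 and -0.70 to -0.65 for MT-ATP6. Adding reads of nuclear copies was not run, as those genes were not analysed here. The order of levels held throughout, with differences of 0.52 to 0.55 for MT-CO2 over MT-CO1, 1.42 to 1.44 for MT-CO1 over MT-CYB and 0.77 to 0.82 for MT-CYB over MT-ATP6 when a library was left out; its permutation p, 0.0625 with 5 libraries, is fixed by the shared order.

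Counts of calls were less stable than these values, and the cause was not tested. Over all genes, 508 calls became 1039 with DESeq2, 279 with limma on log2(TPM + 1), and 77 to 533 with a library left out: leaving out C1, C2 or C3 gave 77, 116 or 109, leaving out K1 or K3 gave 117 or 99, and leaving out K2 gave 533. Nuclear subunits held 0 calls, against 1 with DESeq2. Assembly genes held 0, against 1 with DESeq2, 2 with limma, and 0 to 1 with a library left out, the 1 being COA3 without K2. Genes of mitochondrial gene expression and DNA maintenance held 2, against 4 with a mean of at least 50 counts and 7 with DESeq2. They held 1 with limma, and 0 to 2 with a library left out. The 7 complex I transcripts kept at least 5 calls in every alternative. Full library totals recovered from FPKM, an alternative chosen after seeing the data, gave 507 calls over all genes.

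Libraries with the same number did not deviate together (correlations of -0.0891, 0.0324 and -0.00432 for numbers 1, 2 and 3), and not every library correlated best with its own number, so the numbers were not taken as pairs. With the replicate block, 25 genes were called, with 0 in mitochondrial gene expression and DNA maintenance and 5 of 7 in complex I.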
